A study of Mus musculus with 6 samples.

Results

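Myelin and mature oligodendrocyte genes were followed in RNA from mouse brain, as a set of 30 genes chosen for their known role. They were chosen with earlier results of these data known and were taken by symbol from a deposited table of 23057 genes. All 30 were in the table and all 30 passed the filter on low values. The samples were labelled as whole brains of C57BL/6 mice, 3 mock-irradiated and 3 whose heads received 10 Gy of X-rays from front to back through a collimated field 10.08 mm across. Brains were taken 30 days after the exposure or mock exposure, following perfusion with saline, and each library came from 1 mouse. The labels name no other agent, allele or tumor, and no age or sex of the mice is given there. The unit is FPKM, in which the authors scaled fragment numbers to transcript length and to each library's mapped reads, so levels of different genes can be set side by side. Although all 6 are labelled whole brain, markers of cerebellum, hindbrain and spinal cord were far lower in the irradiated than in the mock libraries. The regions sampled may therefore differ between the groups, and such a difference cannot be told apart from irradiation.

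Mature oligodendrocytes wrap axons of the central nervous system in myelin, a stack of membrane that is rich in galactolipids and cholesterol and is held together by a small set of abundant proteins. Mbp and Mobp bind the cytoplasmic faces of the membrane together, Mag and Mog lie on its inner and outer surfaces, and Cnp keeps channels of cytoplasm open within it. The enzymes Fa2h, Ugt8a and Gal3st1 make the characteristic lipids in sequence, galactosylceramide and its sulfated form sulfatide, and the transcription factor Myrf switches many of these genes on as the cell matures. In bulk RNA, fewer oligodendrocytes and less RNA per oligodendrocyte cannot be told apart.

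All 30 genes had a lower fitted level in irradiated than in mock brain, by a median of 0.79 on the log2 scale (median log2 change -0.79, range -1.49 to -0.03), against a median of -0.02 over the 14585 genes tested. Of the 30, 7 fell (limma, Benjamini-Hochberg adjusted p under 0.05 over all genes tested), or 23.3% of the set, against 4.24% of all genes tested (7.72% were called in either direction). None rose, against 3.48% of all genes tested, and 0 of the 30 were higher at an unadjusted p under 0.05. The 7 were Ugt8a, Ermn, Enpp2, Gjb1, Cntn2, Mobp and Gal3st1. A further 10 genes had an adjusted p between 0.05 and 0.1 and 11 had one between 0.1 and 0.2, while Apod and Cryab were far from the threshold. In the same libraries, markers of the cerebellum and of the hindbrain and spinal cord had median log2 changes of -2.84 and -2.69. In 24 of the 30 genes the 3 irradiated libraries lay below all 3 mock libraries, 80.0% of the set against 17.7% of all genes tested. At an unadjusted p under 0.05, 28 of the 30 were lower, or 93.3% against 13.9%.

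The count of calls rested on the full set of libraries. It was 1 without mock 1, without mock 2, without mock 3 or without irradiated 3, and 14 without irradiated 1. The gene called was Ppp1r14a without mock 1, Enpp2 without mock 2 and Ugt8a in the other 2 cases. Calls over all genes moved in the same direction. Without mock 1, mock 2, mock 3 or irradiated 3, 254, 298, 342 and 260 genes were called lower. Without irradiated 1 it was 695, against 618 with all libraries. No member was called when genes of low level were kept in the test, where 224 of 23057 genes were called lower. The direction was steadier than the calls: 28 to 30 of the 30 changes were negative under each of the 17 other settings tried, and the exceptions were Apod and Cryab. Of the 17 settings, Ugt8a was called in 13, Ermn in 11, Gjb1 and Enpp2 in 9, Mobp and Cntn2 in 8 and Gal3st1 in 6.

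**Figure D1:**
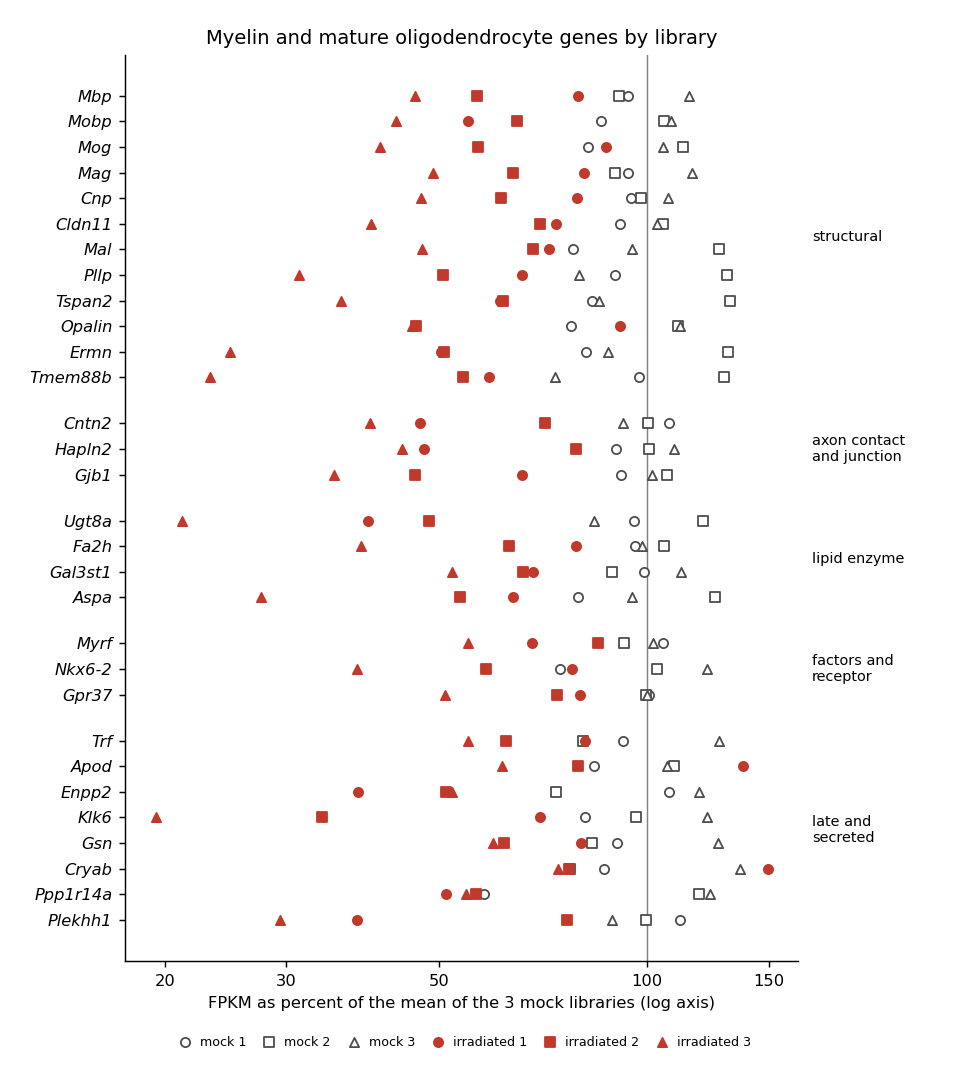
FPKM of each of the 30 genes in each library, as a percent of the mean of the 3 mock libraries on a log axis, with mock libraries as open and irradiated libraries as filled symbols and genes grouped by role. In 24 genes the filled symbols all lie left of the open ones, irradiated 3 is the lowest irradiated library in 28 genes, and Apod and Cryab are the genes in which irradiated 1 lies right of every mock library.

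The set as a whole took 1.33%, 1.34% and 1.36% of the summed FPKM in mock 1, 2 and 3. It took 0.86%, 0.80% and 0.52% in irradiated 1, 2 and 3. The shares of the groups did not overlap, and mock libraries lay closer together than irradiated ones. Mbp alone made up 51.7% to 55.6% of the summed FPKM of the set in each library, so the sum is mostly Mbp. Taken gene by gene, the median level was 69.2%, 61.9% and 43.7% of the mock mean in irradiated 1, 2 and 3. Irradiated 3 was the lowest irradiated library for 28 of the 30 genes, and irradiated 1 was the highest for 20. Among mock libraries the order was less regular, with mock 3 highest for 14 genes, mock 2 for 12 and mock 1 for 4. The median coefficient of variation between the 3 libraries of a group was 17.3% in mock and 31.6% in irradiated brain.

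The structural genes, 12 in all, had a median log2 change of -0.76, and 2 of them fell, Ermn and Mobp. For the counts of this and the other roles, 4.24% of all genes tested were called lower. Mbp, which encodes myelin basic protein and was the most abundant gene of the set, was at 3486, 3384 and 4278 FPKM in the mock brains and 2948, 2109 and 1711 FPKM after irradiation. It ranked second among all genes in each mock library and between 7 and 27 in the irradiated ones. The groups did not overlap, but the log2 change of -0.75 (SE 0.30, limma adjusted p = 0.16) did not pass the adjustment.

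Mobp, a small basic protein of compact myelin, was at 219.6, 271.1 and 277.3 FPKM in the mock brains and 140.7, 165.7 and 110.8 FPKM after irradiation. Every irradiated library lay well under the lowest mock library. The log2 change was -0.89 (SE 0.21, limma adjusted p = 0.038), a level 1.85-fold lower. Ermn, a cytoskeletal protein of late oligodendrocytes that binds actin, was at 35.2, 56.6 and 37.9 FPKM in the mock brains and 21.7, 22.0 and 10.8 FPKM after irradiation. Mock 2 was high and irradiated 3 was low for this gene, with a gap between the groups all the same. It was 2.41-fold lower (log2 change -1.27, SE 0.30, limma adjusted p = 0.040), the largest change among structural genes.

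Mag, an adhesion protein of the innermost myelin layer, had the smallest change among structural genes. It was at 184.1, 176.2 and 227.7 FPKM in the mock brains and 159.0, 125.2 and 95.8 FPKM after irradiation (log2 change -0.65, SE 0.22, limma adjusted p = 0.11). Cnp, an enzyme of the cytoplasmic channels of myelin, was at 288.0, 297.8 and 326.4 FPKM in the mock brains and 240.6, 186.6 and 142.8 FPKM after irradiation (log2 change -0.71, SE 0.22, limma adjusted p = 0.087). For both genes the groups were separate and neither change passed. Mog, on the outer surface of myelin, was at 69.0, 94.9 and 88.7 FPKM in the mock brains and 73.5, 48.0 and 34.6 FPKM after irradiation. Here irradiated 1 lay above mock 1, so the groups overlapped (log2 change -0.74, limma adjusted p = 0.13). Opalin, a glycoprotein of mature oligodendrocytes, overlapped in the same way, with 28.4, 40.7 and 40.9 FPKM in the mock brains and 33.5, 17.0 and 16.7 FPKM after irradiation.

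The other 5 structural genes had separate groups and adjusted p between 0.065 and 0.13. Tmem88b, a membrane protein, had a log2 change of -1.18 (SE 0.35) and Pllp, the myelin proteolipid plasmolipin, one of -1.04 (SE 0.29). Both had their highest value in mock 2, 46.1 FPKM for Tmem88b and 80.2 FPKM for Pllp, and their lowest in irradiated 3, 8.29 and 19.2 FPKM. Tspan2, a tetraspanin of myelin, had a log2 change of -0.91 (SE 0.26). Cldn11, the claudin that forms the tight junctions of myelin, had one of -0.76 (SE 0.25), and Mal, a proteolipid of membrane sorting, one of -0.67 (SE 0.24). Mal was also highest in mock 2, at 210.8 FPKM against 129.7 and 158.0 FPKM in mock 1 and 3.

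**Figure D2:**
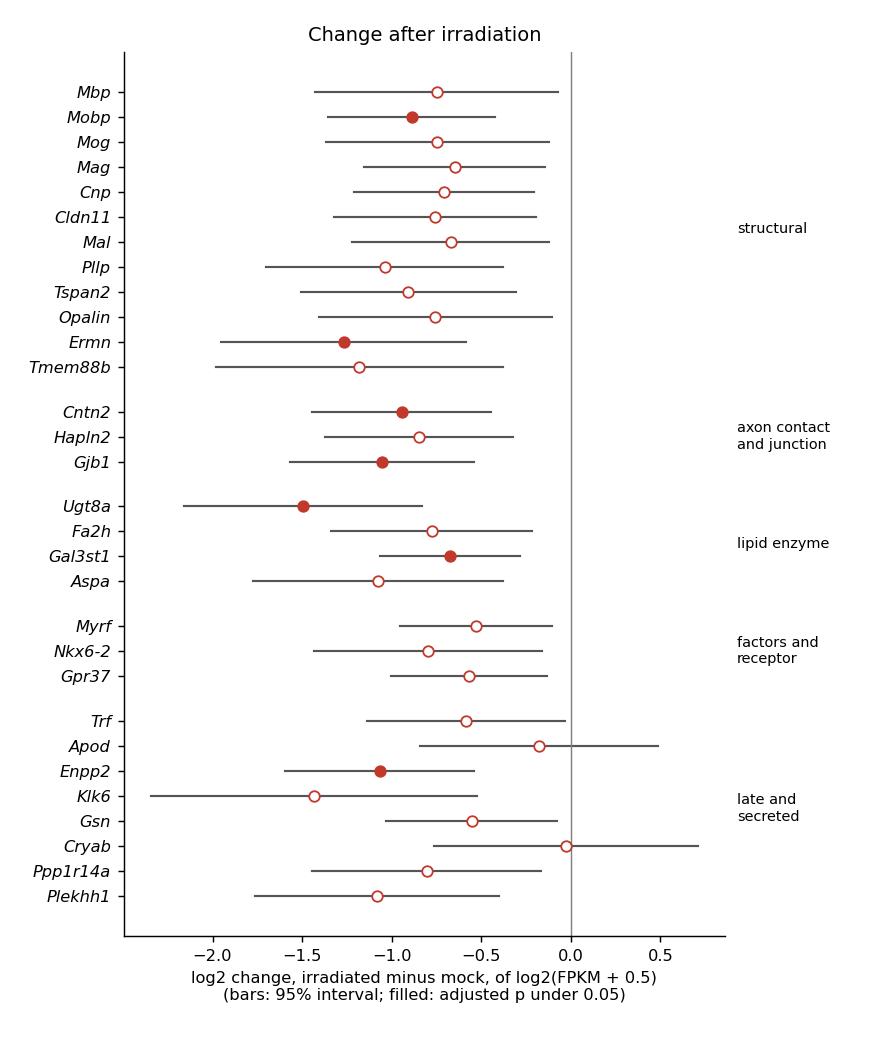
Log2 change of each gene, irradiated minus mock, on the log2(FPKM + 0.5) scale, with its 95% interval from limma, genes grouped by role, and filled points for an adjusted p under 0.05. All points lie left of 0, 28 of the 30 intervals exclude 0, and the widest-apart genes of the set are Ugt8a at -1.49 and Cryab at -0.03.

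The genes of axon contact and cell junctions, 3 in all, had a median log2 change of -0.95, and 2 of them fell. Gjb1, which encodes the gap junction protein connexin 32, was at 41.6, 48.6 and 46.1 FPKM in the mock brains and 30.0, 21.0 and 16.0 FPKM after irradiation. The highest irradiated library was clearly under the lowest mock library, and the level was 2.08-fold lower (log2 change -1.05, SE 0.23, limma adjusted p = 0.029). Cntn2, an adhesion molecule that gathers potassium channels beside the nodes of Ranvier and is also made by neurons, was at 31.6, 29.5 and 27.1 FPKM in the mock brains and 13.8, 20.9 and 11.7 FPKM after irradiation. Irradiated 2 was the nearest to mock, and the log2 change was -0.95 (SE 0.22, limma adjusted p = 0.038). Hapln2, a link protein of the matrix at the nodes, was at 43.1, 48.1 and 52.3 FPKM in the mock brains and 22.7, 37.7 and 21.1 FPKM after irradiation, again with irradiated 2 nearest to mock (log2 change -0.85, SE 0.23, limma adjusted p = 0.060).

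The lipid genes, 4 in all, had separate groups throughout and a median log2 change of -0.93, and 2 of them fell. Ugt8a, on chromosome 3 (125865272 to 125938682 in GRCm38.p6), encodes the enzyme that adds galactose to ceramide and had the largest change of the set. It was at 41.9, 52.6 and 36.7 FPKM in the mock brains and 17.3, 21.1 and 9.26 FPKM after irradiation. The lowest mock library was above the highest irradiated library by a wide margin, and the level was 2.82-fold lower (log2 change -1.49, SE 0.29, 95% interval -2.16 to -0.83, limma adjusted p = 0.020). Its adjusted p was 0.471 with a telencephalic covariate, which was the largest over the settings tried, and the change then was still negative.

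Gal3st1, the next enzyme in the pathway, which adds sulfate to make sulfatide, was at 28.6, 25.6 and 32.3 FPKM in the mock brains and 19.7, 19.1 and 15.0 FPKM after irradiation. Libraries within a group were close, and this gene passed with a smaller change than its neighbours (log2 change -0.67, SE 0.17, limma adjusted p = 0.0496). That p was just under the threshold and the call was lost under 11 of the 17 other settings. Fa2h, which hydroxylates the fatty acid of these lipids, was at 33.5, 36.9 and 34.3 FPKM in the mock brains and 27.5, 22.0 and 13.4 FPKM after irradiation (log2 change -0.78, SE 0.25, limma adjusted p = 0.091). Aspa, which splits N-acetylaspartate and so supplies acetate for lipid synthesis, was at 22.4, 35.4 and 26.7 FPKM in the mock brains and 18.0, 15.1 and 7.77 FPKM after irradiation (log2 change -1.08, SE 0.31, limma adjusted p = 0.069). The lipid enzymes thus ranged from -1.49 to -0.67, which overlaps the range of the structural genes, -1.27 to -0.65. The lists are small and the difference between them was not tested.

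The transcription factors and the receptor of the set, 3 genes, had the smallest median change of the 5 roles, -0.57, and 0 of them were called. Myrf was at 19.6, 17.2 and 18.9 FPKM in the mock brains and 12.7, 15.8 and 10.2 FPKM after irradiation. All irradiated libraries were lower, irradiated 2 by little (log2 change -0.53, SE 0.19, limma adjusted p = 0.12). Gpr37, an orphan receptor that restrains oligodendrocyte maturation, was nearly equal in the 3 mock libraries, at 35.7, 35.3 and 35.5 FPKM, and was at 28.4, 26.3 and 18.1 FPKM in irradiated ones (log2 change -0.57, SE 0.19, limma adjusted p = 0.11). Nkx6-2, a homeobox factor of myelinating cells, was at 26.4, 36.5 and 43.1 FPKM in the mock brains and 27.5, 20.7 and 13.4 FPKM after irradiation, where irradiated 1 lay just above mock 1 (log2 change -0.80, SE 0.28, limma adjusted p = 0.12).

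The late and secreted genes, 8 in all, spread the most, from -1.43 to -0.03, with 1 called. Enpp2 encodes autotaxin, a secreted enzyme that makes lysophosphatidic acid and is also strong in the choroid plexus. It was at 258.0, 176.8 and 285.2 FPKM in the mock brains and 91.3, 122.7 and 125.3 FPKM after irradiation. The groups were separate, with irradiated 1 lowest, unlike most of the set (log2 change -1.07, SE 0.23, limma adjusted p = 0.030). Of 12 choroid plexus markers, 1 fell and 0 rose, against 4.24% and 3.48% of all genes tested. The marker that fell was the potassium channel subunit Kcne2 (log2 change -1.56, limma adjusted p = 0.010). Ttr, the main secreted protein of that tissue, was at 1736, 919.9 and 2134 FPKM in the mock brains and 832.9, 778.5 and 1016 FPKM after irradiation, where irradiated 3 lay above mock 2 and the change did not pass (log2 change -0.79, limma adjusted p = 0.18). For Enpp2 and Ttr alike mock 2 was the lowest mock library. The median of the 12 choroid plexus markers lay 0.86, 0.64 and 0.38 under the mock mean on the log2 scale in irradiated 1, 2 and 3 (medians of -0.86, -0.64 and -0.38), and their part in the change of Enpp2 was not tested.

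Klk6, a secreted serine protease of mature oligodendrocytes, was at 42.2, 49.9 and 63.4 FPKM in the mock brains and 36.3, 17.5 and 10.1 FPKM after irradiation. Its irradiated libraries were far apart from each other, and the log2 change of -1.43 (SE 0.40, limma adjusted p = 0.065), the second largest of the set, did not pass. Plekhh1, a protein with a pleckstrin domain, was the least abundant gene of the set, at 11.1, 9.90 and 8.84 FPKM in the mock brains and 3.78, 7.60 and 2.92 FPKM after irradiation (log2 change -1.08, SE 0.30, limma adjusted p = 0.064). Ppp1r14a, an inhibitor of myosin phosphatase, was at 61.5, 125.9 and 130.7 FPKM in the mock brains and 54.2, 59.9 and 58.0 FPKM after irradiation. Mock 1 sat beside the irradiated libraries for this gene (log2 change -0.80, limma adjusted p = 0.12), and it was called without mock 1.

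Trf, which encodes the iron carrier transferrin, was at 417.2, 364.7 and 573.5 FPKM in the mock brains and 366.8, 281.7 and 248.9 FPKM after irradiation, with irradiated 1 just above mock 2 (log2 change -0.59, SE 0.24, limma adjusted p = 0.17). Gsn, the actin-severing protein gelsolin, had a similar change (log2 change -0.55, SE 0.21, limma adjusted p = 0.14). Apod and Cryab differed from the rest of the set in the irradiated 1 library. Apod, a lipid-binding apolipoprotein, was at 165.4, 215.5 and 211.0 FPKM in the mock brains and 271.8, 156.5 and 121.6 FPKM after irradiation. Cryab, a small heat shock protein that astrocytes also make, was at 197.2, 176.0 and 310.6 FPKM in the mock brains and 341.0, 175.8 and 169.5 FPKM after irradiation. For both genes irradiated 1 was the highest of all 6 libraries. The log2 change of Apod was -0.18 (95% interval -0.84 to 0.49, limma adjusted p = 0.73), and it was positive without irradiated 3 and with a telencephalic covariate. That of Cryab was -0.03 (95% interval -0.76 to 0.71, limma adjusted p = 0.96), and it was positive under median centring and without mock 3, irradiated 2 or irradiated 3. The interval of Apod includes the median change of the set, -0.79, and that of Cryab reaches -0.76, so neither gene is shown to have kept its level.

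**Figure D3:**
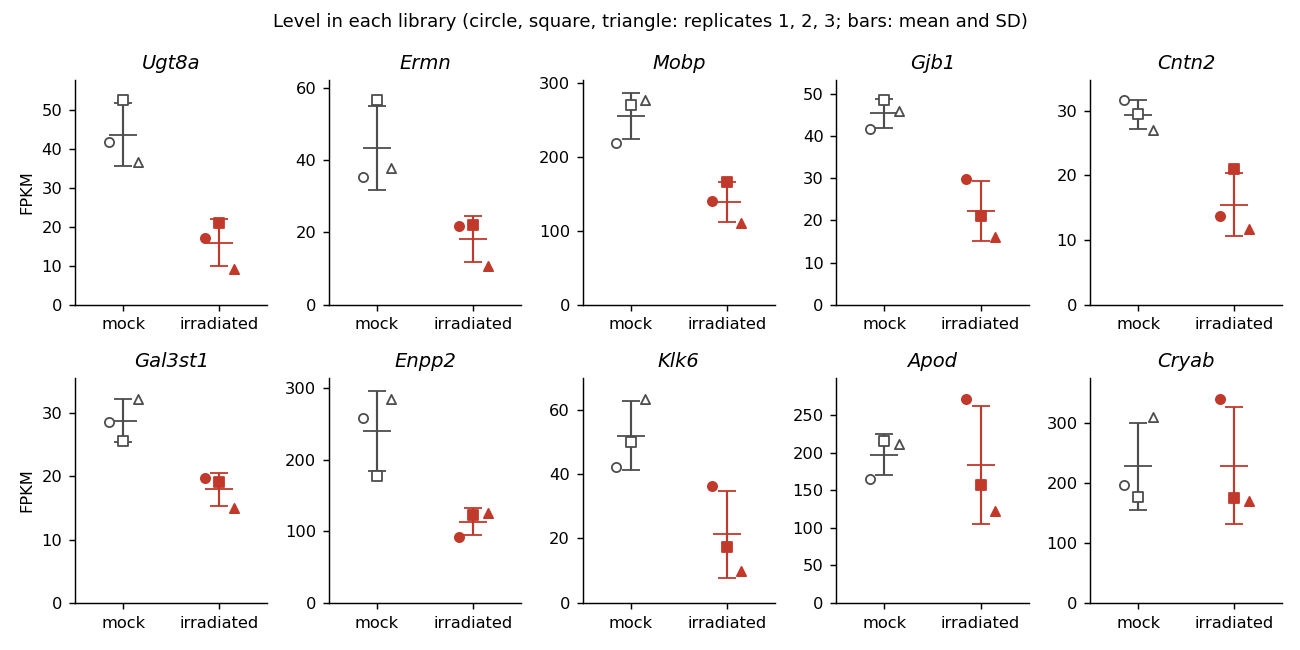
FPKM in each library of the 7 genes that fell and of Klk6, Apod and Cryab, with the mean and SD of each group (n = 3) and every axis starting at 0. The groups are separate in the first 8 panels, while in Apod and Cryab irradiated 1, at 271.8 and 341.0 FPKM, lies above every mock library.

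The balance of the genes within a library was compared next. Each of the other 29 genes was set against Mbp of the same library as log2(gene / Mbp), which removes whatever moves all myelin genes alike, and in 25 of the 29 the ratios of the groups overlapped. The other 4 were separate, 3 higher and 1 lower, against 51.7% of the 14488 genes tested with a value above 0 in every library (50% higher and 1.71% lower), and Mbp, the shared denominator, was itself lower after irradiation. The ratio of Cnp to Mbp was -3.60, -3.51 and -3.71 in the mock brains and -3.62, -3.50 and -3.58 after irradiation, and that of Mag to Mbp stayed between -4.26 and -4.07 in all 6. The ratio of Cryab to Mbp was -4.14, -4.27 and -3.78 in the mock brains and -3.11, -3.58 and -3.34 after irradiation, higher in each irradiated library. That of Apod to Mbp was -4.40, -3.97 and -4.34 in the mock brains and -3.44, -3.75 and -3.81 after irradiation, also separate. Both differences, 0.72 for Cryab and 0.57 for Apod, had a two-sided exact permutation p = 0.1, the smallest that 3 against 3 can give, so the design cannot pass 0.05. The ratio of Mag to Mbp was also separate and higher, by 0.10, and that of Gjb1 was separate and lower, by 0.32 (difference -0.32). For Ugt8a and Klk6 the mean ratio was lower by 0.78 and 0.71 (differences -0.78 and -0.71) but the groups overlapped. These genes were picked from the 29 after their values had been seen.

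**Figure D4:**
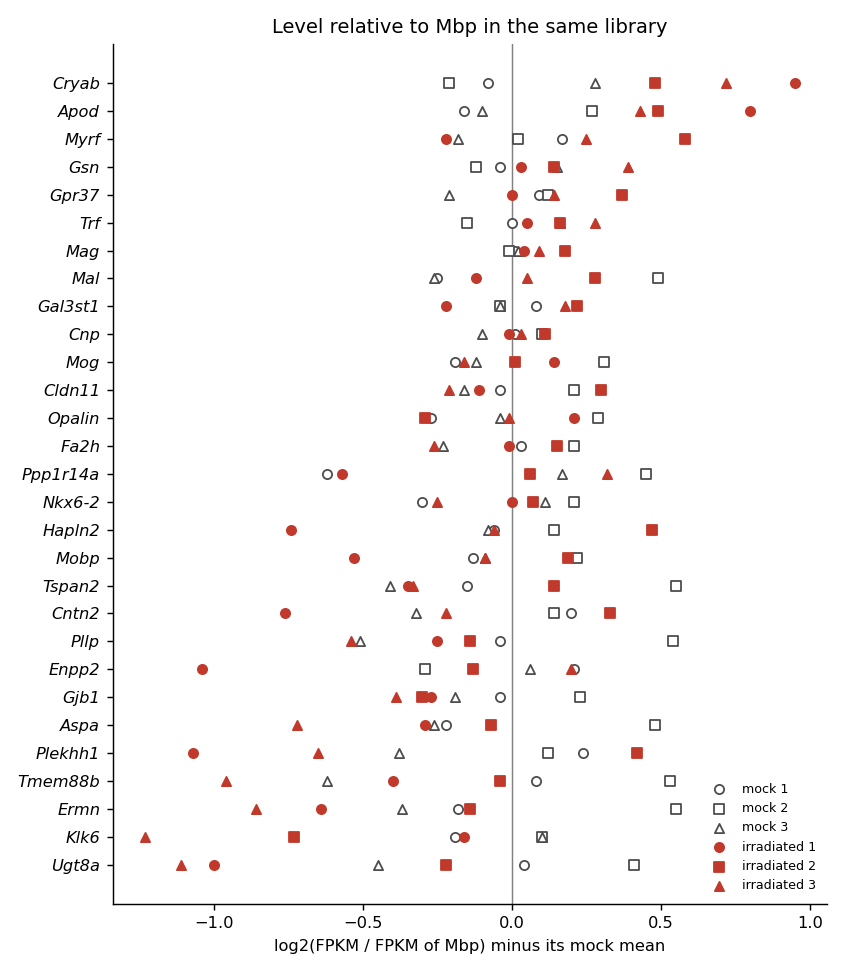
Log2 of each gene's FPKM over that of Mbp in the same library, minus the mean of the mock libraries, with genes ordered by the difference between groups. Filled and open symbols are mixed in 25 of the 29 genes, and Cryab and Apod stand at the top with all irradiated libraries to the right, by 0.72 and 0.57 on average.

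The order of the irradiated libraries also differed between genes of the set. In 10 genes irradiated 1 lay below irradiated 2: Mobp, Tspan2, Ermn, Cntn2, Hapln2, Ugt8a, Myrf, Enpp2, Ppp1r14a and Plekhh1. The gap was wide for Plekhh1, at 38.0% and 76.5% of the mock mean, and for Hapln2, at 47.5% and 78.9%. In the other 20 genes irradiated 1 was above irradiated 2, by a wide gap for Klk6, at 70.0% and 33.7% of the mock mean, and for Opalin, at 91.4% and 46.2%. Other genes were near ties, such as Tspan2, at 61.2% and 61.8%, Ermn, at 50.2% and 50.8%, and Gal3st1, at 68.3% and 66.1%. Each of the 5 roles held genes of both orders, and the same split was not counted over all genes. Across the 30 genes the size of the change and the mock level were weakly related (Spearman rho 0.31 between log2 change and mock mean, a description across genes measured in the same 6 libraries).

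RefSeq promoter windows of GRCm38.p6, 250 bases before to 50 bases after a start site, were on hand for 24 of the 30 genes, and the first window listed was taken for each gene. Enpp2, Trf, Fa2h, Mbp, Cryab and Myrf had no entry. On both strands 8 short words were searched. ACAAAG and ACAATG are forms of the core bound by SOX proteins, among them Sox10, the master factor of the lineage, and CTGGCAC and CTGGTAC resemble the motif known for Myrf. ACAAAG was found in 7 of 24 genes (29.2%, against 18.7% of 27025 promoters of the same length) and ACAATG in 6 (25.0% against 12.8%). CTGGCAC was found in 4 (16.7% against 5.00%), namely Mag, Cnp, Opalin and Hapln2, and CTGGTAC in 1, Mog (4.17% against 2.22%). The TATA word TATAAA was found in 1 gene, Aspa (4.17% against 14.2%), the E-box CACGTG in 0 (against 7.24%), the E-box CAGCTG in 5 (20.8% against 16.1%) and the GC-box core CCGCCC in 9 (37.5% against 35.9%). A match is a run of letters and not a shown binding site.

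Shown here are 3 genes that fell (Mobp, Ermn and Gjb1), 2 structural genes that hold both kinds of word (Mag and Opalin) and Apod, which did not pass. They are printed 5′ to 3′ along the gene, with the SOX words and the Myrf-like word in capitals on whichever strand they lie. On the opposite strand a SOX word reads CTTTGT or CATTGT. In that case the Myrf-like word reads GTGCCAG. The windows are chr9:120149492-120149791 (plus strand) for Mobp, chr2:58052815-58053114 (minus) for Ermn, chrX:101376126-101376425 (plus, the first of 4 listed) for Gjb1, chr7:30914814-30915113 (minus, the first of 3 listed) for Mag, chr19:41077064-41077363 (minus) for Opalin and chr16:31314759-31315058 (minus) for Apod.
Mobp: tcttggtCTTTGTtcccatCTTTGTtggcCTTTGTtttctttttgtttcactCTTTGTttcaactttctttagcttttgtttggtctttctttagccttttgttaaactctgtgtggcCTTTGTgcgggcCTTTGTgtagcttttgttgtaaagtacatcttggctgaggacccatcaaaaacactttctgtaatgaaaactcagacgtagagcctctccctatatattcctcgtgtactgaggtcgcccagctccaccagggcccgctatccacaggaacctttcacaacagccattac
Ermn: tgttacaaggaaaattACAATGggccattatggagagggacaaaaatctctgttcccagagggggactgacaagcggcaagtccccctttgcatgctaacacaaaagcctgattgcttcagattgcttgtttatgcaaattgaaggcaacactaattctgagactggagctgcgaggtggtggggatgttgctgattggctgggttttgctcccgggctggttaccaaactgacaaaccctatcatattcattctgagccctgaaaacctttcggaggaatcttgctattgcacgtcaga
Gjb1: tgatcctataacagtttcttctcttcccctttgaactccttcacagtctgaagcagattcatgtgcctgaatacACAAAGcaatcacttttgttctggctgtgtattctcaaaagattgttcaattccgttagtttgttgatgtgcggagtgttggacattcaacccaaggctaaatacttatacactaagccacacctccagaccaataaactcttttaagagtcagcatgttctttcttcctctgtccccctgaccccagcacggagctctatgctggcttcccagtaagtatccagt
Mag: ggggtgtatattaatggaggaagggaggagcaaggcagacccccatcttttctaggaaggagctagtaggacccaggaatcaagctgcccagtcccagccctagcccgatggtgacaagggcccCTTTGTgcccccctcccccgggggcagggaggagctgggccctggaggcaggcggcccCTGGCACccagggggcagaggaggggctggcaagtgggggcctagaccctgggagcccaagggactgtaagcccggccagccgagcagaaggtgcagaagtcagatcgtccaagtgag
Opalin: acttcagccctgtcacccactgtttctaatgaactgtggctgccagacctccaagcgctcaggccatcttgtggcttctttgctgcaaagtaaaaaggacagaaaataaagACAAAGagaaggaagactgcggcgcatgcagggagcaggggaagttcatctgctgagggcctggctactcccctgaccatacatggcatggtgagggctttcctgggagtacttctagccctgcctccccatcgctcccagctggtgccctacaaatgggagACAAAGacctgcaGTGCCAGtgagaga
Apod: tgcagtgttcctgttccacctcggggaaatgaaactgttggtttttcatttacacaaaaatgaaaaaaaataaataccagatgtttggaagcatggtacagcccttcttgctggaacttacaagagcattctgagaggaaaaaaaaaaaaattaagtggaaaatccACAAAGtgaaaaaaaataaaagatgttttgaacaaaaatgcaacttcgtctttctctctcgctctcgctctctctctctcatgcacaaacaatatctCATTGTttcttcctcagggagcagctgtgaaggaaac
The window of Mobp held the capital word 6 times, all as CTTTGT, the most of the 24 genes, and Apod held 2 words although its level overlapped between groups. Of the 6 genes that fell and had a window, 4 held ACAAAG or ACAATG, as did 11 of all 24, against 28.8% of all promoters. Ugt8a and Cntn2 held neither word in these windows.

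Other oligodendrocyte genes were measured beside the set. For this list and those that follow, 4.24% of all genes tested were called lower and 3.48% higher. Of the 38 oligodendrocyte genes tested, 10 fell and 0 rose, with a median log2 change of -0.66. Among those with the smallest p were Lpar1, a lysophosphatidic acid receptor, at 22.1 ± 0.55 FPKM in the mock brains and 9.77 ± 2.11 FPKM after irradiation (SD, n = 3; log2 change -1.16), the homeobox factor Nkx2-2 (log2 change -1.03), and the connexin Gjc3 (-1.14). Of 29 genes for cholesterol, fatty acids and sphingolipids, which supply myelin membrane, 2 fell and 0 rose, with a median of -0.30. The 2 that fell were the fatty acid elongases Elovl7 (log2 change -1.11) and Elovl5 (-0.87). In 11 of the 29 the irradiated libraries all lay below the mock libraries, and in 3 they all lay above. Over all genes tested these shares were 17.7% and 13.7%.

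Of 16 genes of oligodendrocyte precursors, 6 fell and 0 rose, with a median log2 change of -0.50. By library their median lay at -0.91, -0.65 and -0.49 in irradiated 1, 2 and 3, relative to the mock mean on the log2 scale, so irradiated 1 was lowest. The median of the myelin set lay at -0.51, -0.66 and -1.18 in the same libraries, so there irradiated 3 was lowest. The difference in order was not tested, and it did not hold for every gene: of the 6 that fell, irradiated 1 was lowest in 3, irradiated 2 in 1 and irradiated 3 in 2. Gpr17, a receptor of cells about to differentiate and 1 of the former 3, was at 1.16, 1.43 and 3.36 FPKM in irradiated libraries and 12.2, 8.86 and 10.4 FPKM in mock.

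Markers of brain regions differed far more between the groups than the myelin genes did. The cerebellum list had 14 of 15 genes lower and 0 higher, with a median log2 change of -2.84, and the list of hindbrain and spinal cord had 17 of 17 lower, with a median of -2.69. The summed FPKM of the hindbrain list was 125.2 to 147.8 in mock and 4.32 to 7.19 in irradiated libraries, with 3 or 4 of its genes listed at 0 in each irradiated library and 0 in each mock library. Telencephalic genes were higher, by a median of 1.99, with 3 of 8 called, and within mock their median ran from -1.35 in mock 2 to 0.80 in mock 1. Region and irradiation cannot be told apart for the myelin genes where the groups do not overlap on these lists. Within the irradiated libraries, which lay between -3.01 and -2.58 on the hindbrain list, the myelin median lay at -0.51, -0.66 and -1.18 and the telencephalic median at 1.5, 1.79 and 2.50 in irradiated 1, 2 and 3. Among the irradiated libraries, the one with the highest telencephalic level was thus the lowest for myelin. In mock 1, 2 and 3 the telencephalic median lay at 0.80, -1.35 and 0.56 and the myelin median at -0.12, 0.08 and 0.10. The mock libraries thus did not share that order, and the part of region in the spread was not tested. With mock 2 and irradiated 1 both left out, all 30 changes of the members were negative and their median was -0.90. With the telencephalic median as a covariate, 0 of the 30 fell, 29 of 30 changes were negative and the median was -0.58. Calls over all genes were also fewer with the covariate.

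Among other cell types, 3 of 12 astrocyte genes fell, 2 of 12 microglia genes rose, and of 12 neuron genes 1 fell and 1 rose. Their medians were -0.20, 0.68 and 0.18. The neuron gene that fell was Nefh, the heavy neurofilament of large axons, at 81.0, 92.0 and 148.4 FPKM in the mock brains and 64.5, 43.0 and 36.9 FPKM after irradiation (log2 change -1.14, limma adjusted p = 0.046). The neuron gene that rose was Gap43, at 178.5, 255.8 and 220.1 FPKM in the mock brains and 384.3, 360.8 and 383.9 FPKM after irradiation (log2 change 0.80, limma adjusted p = 0.043). The astrocyte genes that fell were Aqp4 (log2 change -1.03), S100b, which oligodendrocytes also make (-1.33), and Slc4a4 (-0.80), and 0 rose. Of the markers that define peripheral myelin, Pmp2 was at most 0.097 FPKM and Prx at most 0.30 FPKM in any library.

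**Figure D5:**
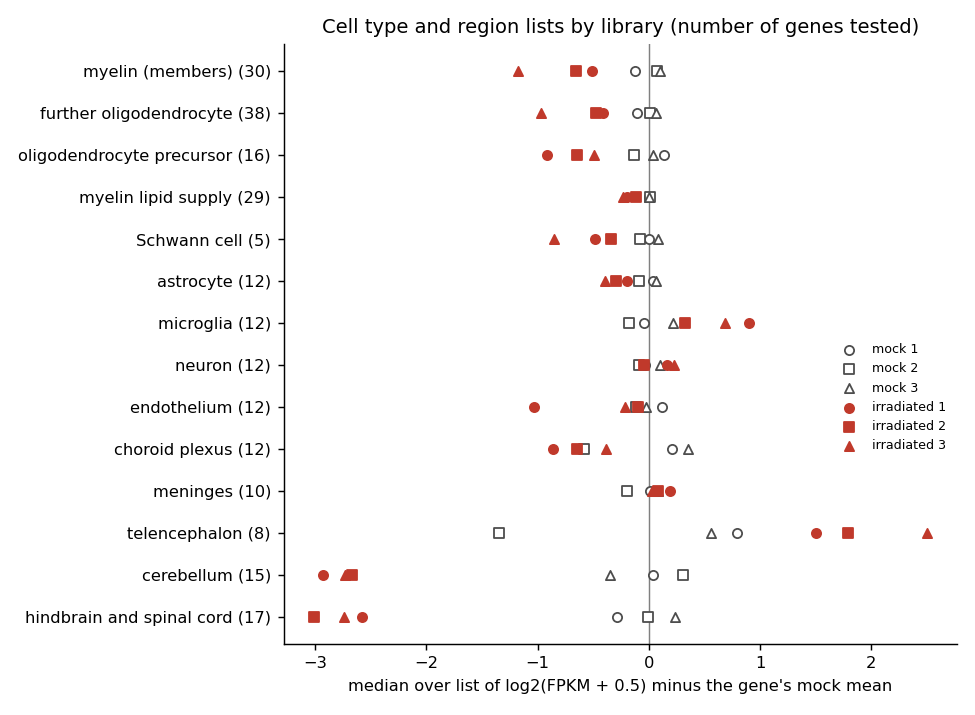
Median over each list of log2(FPKM + 0.5) minus the gene's mock mean, by library, for the myelin genes, other oligodendrocyte, cell type and region lists, with the number of genes tested in brackets. The myelin genes lie between -1.18 and -0.51 in irradiated libraries, the cerebellum and hindbrain lists between -3.01 and -2.58, and the telencephalon list is spread within the mock group as well.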

How the data were processed

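Brain RNA of 6 mice, 3 mock-irradiated and 3 irradiated, was measured. Stranded libraries of total RNA depleted of ribosomal RNA were read from 1 end over 75 nucleotides, at about 30 to 40 M reads each, per the labels' protocols. The authors deposited FPKM values, 1 column per library. The submitters' processing notes name TopHat, Cufflinks, Cuffdiff and mm10, while versions, annotation, strand setting and scaling total are not given in the sources used. After 1 leftover header line was removed, FPKM summed to between 472450 and 625782 per library. No ratio to mock 1 was shared by more than 1.76% of genes under 0.05 FPKM, so read counts could not be recovered and the depth behind a value is unknown.

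The 14585 genes whose mean reached 0.5 FPKM were fitted in limma 3.58.1 (R 4.3.3) as log2(FPKM + 0.5) by group alone, with the variance trended on the mean. P-values were two-sided and adjusted by Benjamini and Hochberg's method. Because of the added 0.5, fold changes of low genes are understated. An adjusted p under 0.05 was a call. The test was tested on simulated data. The members, lists, tests and alternatives were chosen with earlier results of these data known. Named genes were all members, with up to 4 genes of smallest p from each other list and 2 peripheral myelin markers too low to be tested, Pmp2 and Prx, and some genes of those lists are not reported here. The labels do not say that replicates came from separate litters, so p-values measure the spread between these mice. Exons of Cnp, Cryab, Enpp2, Ermn, Nkx6-2, Plekhh1, Pllp and Tspan2 overlap a gene on the opposite strand in GENCODE M21, and those of Mobp and Trf one on the same strand, so their values may include some reads of it. Coordinates are of GRCm38.p6, which mm10 represents.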

Additional observations from a re-analysis of the deposited data

How the results depend on the processing

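The median log2 change of the 30 genes was negative under all 17 other settings, between -0.96 with quantile normalization and -0.58 without irradiated 3 or with a telencephalic covariate. It moved by less than the spread between replicates. The number of the 30 called lower was 7, and it was 17 at an adjusted p under 0.1, 21 with library weights, 14 with quantile normalization, 0 with no filter on low values and 0 with a telencephalic covariate. Leaving out 1 library gave between 1 and 14, and 0 members were called higher under any setting. Over all genes, 508 higher and 618 lower became 1002 and 1149 at an adjusted p under 0.1, 863 and 976 with library weights, 111 and 224 with no filter, and 17 and 64 with the covariate. Leaving out 1 library gave 147 to 673 higher and 254 to 695 lower. Some of these settings use fewer samples or test more genes, and the cause of the moves was not tested.

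With the replicate number as a block, 3 of the 30 were called lower, and over all genes 394 were called lower and 401 higher. Same-numbered libraries deviated from their group means with correlations of -0.33, 0.19 and 0.20, and those of different numbers ran from -0.49 to 0.23. Of the 6 libraries mock 2 alone correlated best with its own number. The deviations within a group are tied to each other, so these values cannot decide whether the numbers pair the mice.

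The log2 change of Apod ran from -0.504 to 0.074 when 1 library was left out (highest without irradiated 3) and was 0.14 with the covariate. That of Cryab ran from -0.355 to 0.22 (positive without mock 3, irradiated 2 or irradiated 3) and was 0.012 with median centring. For single genes, 409 of the results under other settings kept their direction and side of the threshold, 55 lost a call, 40 gained one and 6 changed sign. The depth behind each FPKM is unknown, which leaves no interval for a single library.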
